A study of Mus musculus with 2 samples.

Results

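The splicing regulators described here are 37 genes that encode RNA-binding proteins or kinases controlling which exons and introns are joined: 11 SR proteins, 2 Tra2 SR-like proteins, 14 hnRNPs including Ptbp1 and Ptbp2, 8 regulators with tissue-biased expression (the Mbnl, Rbfox, Esrp and Celf families) and the 2 kinases Clk1 and Clk4. They were chosen by gene symbol, and all 37 were found among the 43346 mouse genes of the gene tables. The transcript tables hold 323 transcripts of them. The samples were 2 libraries of liver from C57BL/6J mouse embryos at embryonic day 18, made from littermates with both sexes pooled and labelled biological replicates 1 and 2 of a single group. Stranded paired-end libraries were made from polyadenylated RNA longer than 200 nt. There was no treatment, mutant or second age, so values are described in each library, and replicate 1 is set against replicate 2 with 1 library on each side and no p-value. Nothing in the labels says how many animals a library pools.

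SR proteins, named for a domain rich in serine and arginine, mostly promote exon recognition, and hnRNPs often oppose it. Many of these genes limit their own protein: the protein promotes splicing of its own pre-mRNA into a form with a premature stop codon, through a so-called poison exon or the skipping of an exon, and nonsense-mediated decay then removes that mRNA. Others keep incompletely spliced, intron-containing RNA in the nucleus. GENCODE labels annotated forms of these kinds as nonsense_mediated_decay (NMD) and retained_intron transcripts, and both labels describe the annotation and not a measured decay rate.

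Library facts that bear on these values are few. Expected counts on mouse genes totalled 159127981 in replicate 1 and 136904842 in replicate 2, and junction reads totalled 125662357 and 105325114. The 5 hepatocyte markers and the 5 erythroid markers examined all reached 1 TPM in each library, and none of the 5 neuronal markers did. Markers of pancreatic acinar cells summed to 53.5 TPM in replicate 1 and 0.74 TPM in replicate 2, with all 6 of 6 beyond 1.5-fold, and striated muscle markers summed to 16.2 and 6.79 TPM, with 4 of 4 measured members beyond 1.5-fold. The part of this difference in the values below was not tested. In bulk tissue, fewer cells of a type and less RNA per cell cannot be told apart.

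Nearly all of the regulators were expressed. TPM is a level corrected for transcript length and scaled to the same total in each library. With a minimum of 1 TPM in each library, 35 of 37 were detected, 31 had a mean of at least 10 TPM and 11 a mean of at least 100 TPM. Together they held 2991 TPM in replicate 1 and 3260 TPM in replicate 2, or 0.313% ± 0.0190 of all TPM (SD, n = 2). The median level of the 37 genes was 49.5 TPM in replicate 1 and 48.9 TPM in replicate 2.

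Among the SR proteins, Srsf5 (chromosome 12, 80945504 to 80950507, mm10) had the highest level, 367.1 TPM in replicate 1 and 431.4 TPM in replicate 2. Srsf2, which binds exonic enhancers, followed at 204.7 and 217.8 TPM, and Srsf1, the founding member of the family, at 110.8 and 127.6 TPM. Srsf6, Srsf3 and Srsf11 were between 89.3 and 113.8 TPM in every library, a range in which their order changed from one library to the other. Srsf7, Srsf9, Srsf4 and Srsf10 lay between 25.7 and 40.7 TPM. The exception was Srsf12, at 0.08 and 0.07 TPM from 18 and 14 counts. Tra2a and Tra2b, SR-like activators of exons, had 43.5 and 41.6 TPM and 46.5 and 46.4 TPM in replicates 1 and 2.

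The hnRNPs held the largest summed level of the 5 groups, 1552 TPM in replicate 1 and 1665 TPM in replicate 2, against 1097 and 1229 TPM for the SR proteins. Hnrnpa2b1 (239.7 and 274.4 TPM), Hnrnpa1 (228.2 and 238.9 TPM), Hnrnpk (233.4 and 222.7 TPM) and Hnrnpf (205.2 and 215.6 TPM) stood at the top, and the order of Hnrnpa1 and Hnrnpk differed between the libraries. Ptbp1, a repressor of exons expressed in most tissues, had 88.2 TPM in replicate 1 and 97.4 TPM in replicate 2. Its paralog Ptbp2, known for its role in neurons, had 4.39 and 5.20 TPM.

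The tissue-biased regulators were lower, with 94.2 TPM in replicate 1 and 105.5 TPM in replicate 2 over all 8 genes. Esrp2, an activator of epithelial splicing patterns, had 24.7 and 28.1 TPM, while Esrp1, which has the same known activity, had 0.13 and 0.11 TPM. Both libraries thus held Esrp2 and almost no Esrp1. Celf1 was at 25.0 and 29.6 TPM and Mbnl1 at 20.8 and 20.4 TPM, and Rbfox2, Mbnl2, Celf2 and Mbnl3 ran down to 1.37 and 1.49 TPM for Mbnl3. The kinases that phosphorylate SR proteins were at 99.6 and 107.0 TPM for Clk1 and 58.2 and 64.9 TPM for Clk4.

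**Figure D1:**
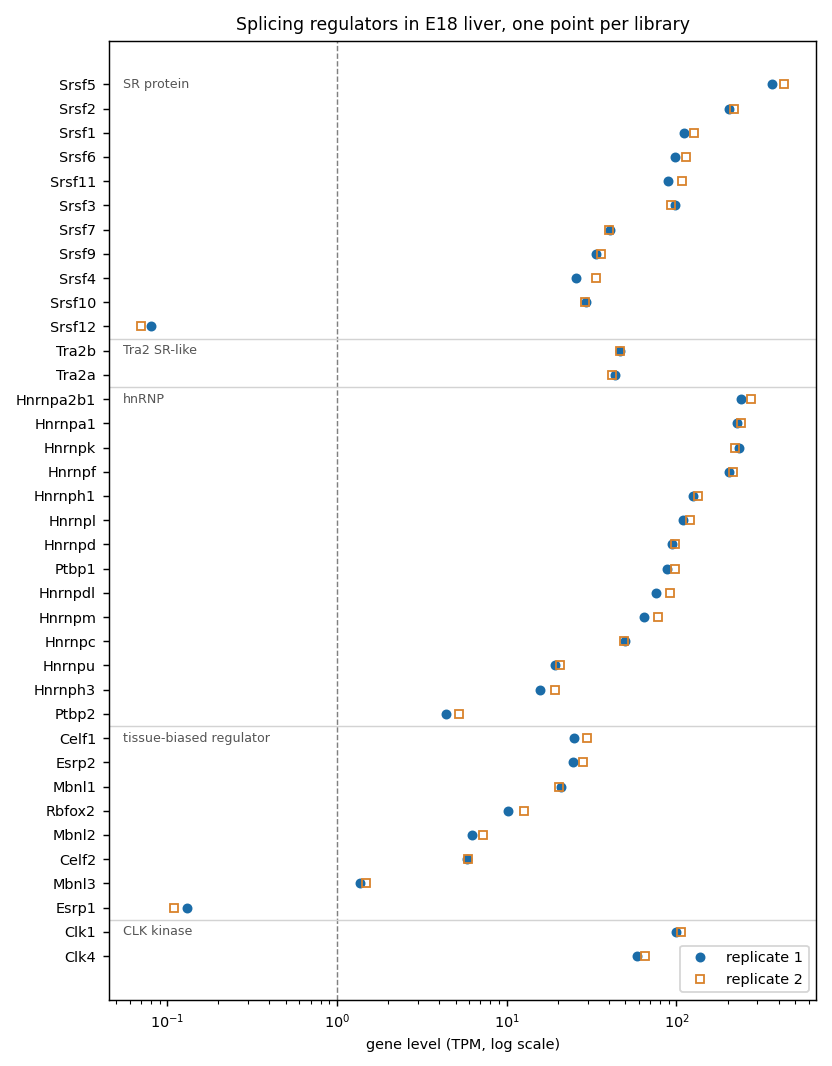
Level of each of the 37 genes in TPM on a log axis, grouped by role, with one point for replicate 1 (filled circle) and one for replicate 2 (open square); the dashed line marks 1 TPM. Only Srsf12 and Esrp1 lie left of the line, and the 2 points of each gene lie close together over a range that ends at 431.4 TPM for Srsf5.

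Some of these levels share sequence with other loci, which limits how reads can be assigned. Of the 50-base words in the leading coding transcript, 61.5% of those of Hnrnpf, 54.1% of those of Hnrnpa1, 43.9% of those of Tra2b, 38.3% of those of Hnrnpk, 31.5% of those of Srsf3 and 28.6% of those of Srsf5 also stand in an annotated transcript of another gene, so the levels of these 6 genes are less certain. For 23 of the 37 genes no word was shared. Exons annotated on the opposite strand cover 43.0% of the exon bases of Srsf4, and same-strand exons of March2 cover 14.7% of those of Hnrnpm. The sources used here do not say whether the authors' counting used the strand.

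A large share of the RNA from these genes was assigned to isoforms that are not annotated as coding. NMD and retained_intron transcripts together held 22.7% of the regulators' summed TPM in replicate 1 and 23.1% in replicate 2 (mean 22.9% ± 0.270, SD, n = 2). Over all 5674 genes of at least 10 TPM, the same classes held 5.70% and 5.16% of TPM. That share is weighted by TPM, so Alb (75316.5 and 75756.1 TPM) and Hbb-bs (76634.4 and 69832.1 TPM) weigh heavily in it. Within the regulators, NMD transcripts gave 6.72% and 6.52% and retained_intron transcripts 16.0% and 16.6%. As a share of expected counts, which are not divided by length, the 2 classes held 18.4% and 19.0%. These transcripts are short: the median length was 827 nt for the 82 retained_intron, 940 nt for the 31 NMD and 2243 nt for the 155 protein-coding transcripts.

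Of the 31 regulators of at least 10 TPM, 18 (58.1%) carried at least 10% of their TPM in these classes in both libraries, against 23.8% of all genes of that level. The tables list such a transcript for 20 of the 31 regulators and for 2828 of the 5674 genes. Among genes with one listed, 18 of 20 regulators (90%) and 47.8% of all genes reached 10%. Their median share was 31.2%, against 10.3% over all such genes. Over the 31 regulators and the 5674 genes, with or without such a transcript listed, the medians were 14.8% and 0%. This is a description of a list, with no test.

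**Figure D2:**
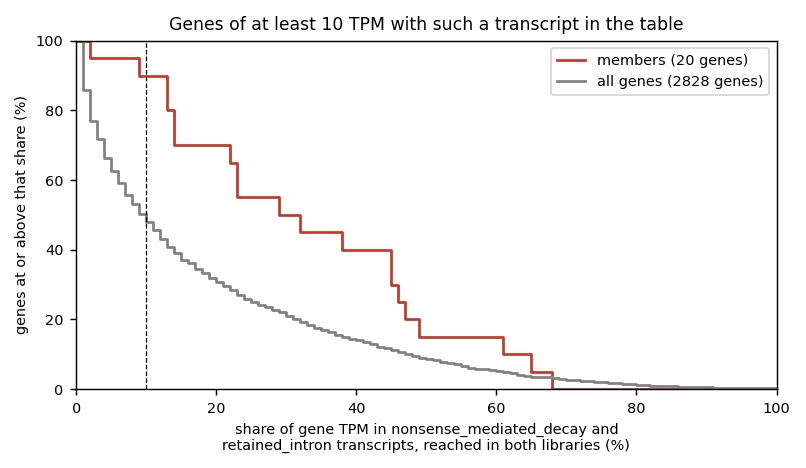
Percent of genes (y axis) whose share of TPM in NMD and retained_intron transcripts reaches the value on the x axis (percent of gene TPM) in both libraries, for the 20 regulators and for all 2828 genes of at least 10 TPM that have such a transcript in the table. At the dashed line, 10%, the curve of the regulators stands at 90% and that of all genes at 47.8%.

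The SR proteins and the CLK kinases carried the largest shares. The 2 classes held 35.4% of SR protein TPM in replicate 1 and 37.7% in replicate 2, and 55.7% and 45.9% of the TPM of Clk1 and Clk4. The hnRNPs had 12.1% and 11.5%, the tissue-biased regulators 8.99% and 9.88%, and the Tra2 genes 6.51% and 8.95%. The share exceeded 50% in both libraries for 3 genes: Srsf3 with 67.4% and 72.9%, Srsf11 with 64.9% and 68.2%, and Srsf6 with 60.2% and 62.6%.

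In 4 genes the most abundant transcript in both libraries was not a coding one. Srsf3 (chromosome 17, 29032628 to 29043373, mm10) was led by the NMD transcript Srsf3-201, with 46.8 TPM in replicate 1 and 47.1 TPM in replicate 2, or 47.5% and 50.9% of the gene. Its leading coding transcript, Srsf3-202, had 32.1 and 25.1 TPM. In the authors' mm9 transcript RPKM, NMD transcripts held less of Srsf3, 19.7% and 33.5%. The other 3 were led by retained_intron transcripts: Srsf5-212 with 27.1% and 28.0% of Srsf5, Srsf1-203 with 28.1% and 28.8% of Srsf1, and Srsf11-203 with 30.7% and 32.4% of Srsf11. By expected counts, which are not divided by length, Srsf3-201 and Srsf5-212 still led, but coding transcripts led in Srsf1 and Srsf11. Srsf1-203, of 759 nt, held 7.75% and 8.21% of Srsf1 counts, and NMD and retained_intron transcripts together 13.2% and 14.6% of its counts, against 44.9% and 49.4% of its TPM. A lead of these classes in TPM was seen in 5.86% of all genes of at least 10 TPM with more than 1 transcript. Among the 7 SR proteins with at least 10% in both libraries, the share was lowest in Srsf4, at 13.9% and 13.0%.

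Single transcripts of these classes were also prominent where a coding transcript led. Ptbp1-214, a retained_intron transcript, held 24.6% and 22.9% of Ptbp1. Srsf6 was divided almost evenly among the coding Srsf6-203 (39.4% and 36.7%), the retained_intron Srsf6-204 (33.1% and 30.5%) and the NMD Srsf6-201 (27.0% and 32.1%). Hnrnph3 had 48.1% and 50.9% in the 2 classes, and its lead passed from the coding Hnrnph3-201 in replicate 1 to the NMD Hnrnph3-204 in replicate 2, each with under 25% of the gene. Hnrnpdl carried 2 NMD transcripts above 10% in both libraries, Hnrnpdl-205 (11.3% and 12.7%) and Hnrnpdl-201 (11.8% and 10.3%).

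**Figure D3:**
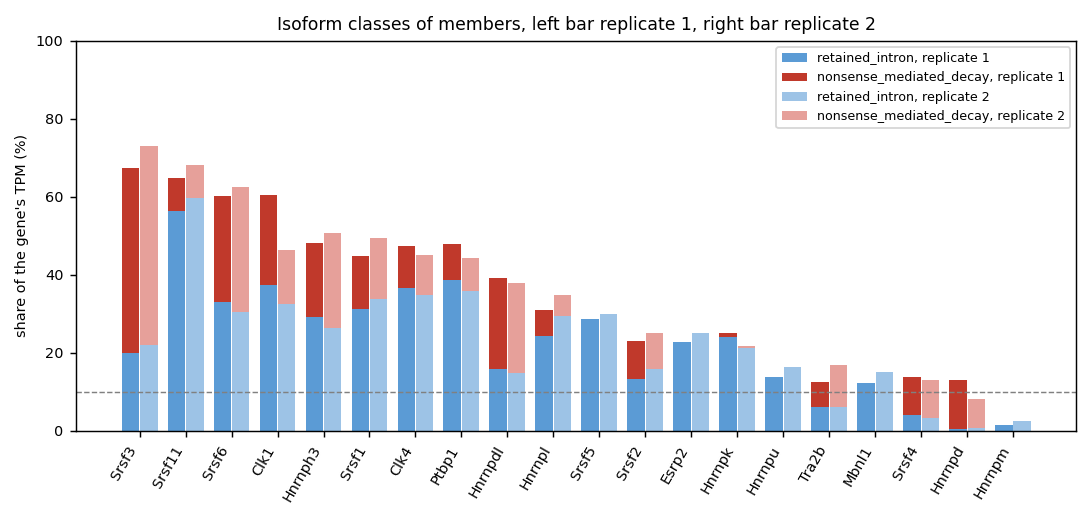
Stacked bars of the percent of each gene's TPM in retained_intron (blue) and NMD (red) transcripts, for the 20 regulators of at least 10 TPM that have such a transcript, with the left, darker bar for replicate 1 and the right, lighter bar for replicate 2. Srsf3 is highest at 67.4% and 72.9%, and the dashed line marks 10%.

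Reads that cross splice junctions give a second view of the NMD isoforms that does not depend on dividing reads among transcripts. Inclusion, or percent spliced in, was the mean of the reads on the 2 junctions of an exon over that mean plus the reads that skip the exon. Exons were taken from NMD transcripts where the leading coding transcript skips them. In the junction list 13 such exons in 11 regulators had all 3 junctions. Only the 9 of them that stand in no coding transcript are called poison exons here. That label rests on the annotated transcripts and not on a stop codon found inside the exon. Of the 13, 8 had inclusion junctions more than 2-fold apart in both libraries. Sequences of 5 of the 9 up to the premature stop codon, from GENCODE M21 transcripts on mm10, show where each closes the reading frame; the stop is in capitals and bases after it are not shown. A Tra2b exon is shown with them although its skipping junction is not one of the leading coding transcript. The 107-nt exon of Hnrnpd was looked up too, but none of its NMD transcripts had its annotated stop inside the exon, so it is not shown. The remaining poison exons were not looked up.
Srsf3 456-nt exon, chr17:29039454-29039487, plus strand: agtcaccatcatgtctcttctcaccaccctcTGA
Srsf6 268-nt exon, chr2:162932815-162932966, plus strand: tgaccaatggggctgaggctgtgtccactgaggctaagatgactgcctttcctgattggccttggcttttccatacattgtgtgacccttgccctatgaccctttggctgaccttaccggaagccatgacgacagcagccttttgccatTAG
Srsf7 460-nt exon, chr17:80205054-80205081, minus strand: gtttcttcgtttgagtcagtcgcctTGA
Srsf11 117-nt exon, chr3:158023310-158023359, minus strand: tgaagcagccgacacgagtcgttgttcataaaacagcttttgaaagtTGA
Hnrnpl 70-nt exon, chr7:28817335-28817393, plus strand: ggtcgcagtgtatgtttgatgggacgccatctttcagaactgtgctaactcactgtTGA
Tra2b 276-nt exon, chr16:22259181-22259261, minus strand: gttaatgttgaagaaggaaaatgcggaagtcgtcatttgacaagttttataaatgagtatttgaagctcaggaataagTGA

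The Srsf3 poison exon was included in most junction reads, and the other 8 poison exons in under 25%. Inclusion of the Srsf3 exon was 81.0% in replicate 1 (exact 95% binomial interval 76.2% to 85.2%, counting error only) and 93.1% in replicate 2 (90.1% to 95.5%). Its reads were uneven: the upstream inclusion junction had 436 and 589 reads, the downstream one 75 and 114, and the skipping junction 60 and 26. Taken from the downstream junction alone, inclusion was 55.6% in replicate 1 and 81.4% in replicate 2. Neighbouring Srsf3 junctions were uneven as well, with 534 and 387 reads on the one before, 99 and 86 on the next one after and 1072 and 941 on the one after that, and the cause was not tested. The 2 libraries were ordered alike with either junction, lower in replicate 1.

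Inclusion of the other exons of this kind in SR proteins ran over a wide range. The Srsf6 exon was included in 17.9% of replicate 1 and 24.7% of replicate 2, and the 117-nt Srsf11 exon in 17.8% and 22.7%. For Srsf6 the counting intervals of the 2 libraries did not overlap (15.9% to 19.9% and 22.5% to 27.0%), and for Srsf11 they overlapped at their ends. In both exons the reads on the upstream and downstream junctions were more than 2-fold apart, which gave 11.7% and 14.5% from the upstream junction and 23.2% and 32.7% from the downstream one for Srsf6. For Srsf11 the upstream junction gave 6.23% and 9.32% and the downstream one 26.8% and 32.6%. Srsf7 is listed with 1 transcript in the transcript tables, which therefore give it no NMD share, yet its poison exon was included in 5.63% of replicate 1 and 7.89% of replicate 2. The Srsf2 exon of 104 nt, which also stands in a coding transcript, was at 6.38% and 6.88%, and the Srsf9 exon of 90 nt at 1.20% and 1.23%.

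Among the hnRNPs, the poison exon of Hnrnpl, which regulates its own splicing through it, had 9.77% and 8.42%, and the 107-nt exon of Hnrnpd had 9.53% and 6.32%. The Hnrnpd value depended on the junction: in replicate 1 the upstream junction gave 14.6%, and the downstream one gave 3.84% in replicate 1 and 2.30% in replicate 2. A 71-nt exon of Hnrnpd shares the upstream junction and had only 1 and 3 reads downstream, and a 109-nt exon of Srsf11 had 3 and 3, so neither is interpreted. In 3 hnRNP genes the exon also serves in a coding transcript, inside the coding region and in frame, and there the junctions and the transcript tables differed. The 159-nt exon of Hnrnpa1 had an inclusion of 61.5% and 73.0%, but the only listed transcript with it, Hnrnpa1-201, held 9.97% and 10.3% of Hnrnpa1 TPM. The 78-nt exon of Ptbp1 had 43.6% and 46.5% by junctions, and the listed transcripts that carry it held 24.3% and 23.6% of TPM. The 36-nt exon of Hnrnpa2b1, which separates protein isoform B1 from the shorter isoform A2, had 3.14% and 4.37% by junctions, and Hnrnpa2b1-203, the listed transcript that carries it, held 35.3% and 34.6% of TPM. The cause of these differences was not tested, and a share of gene TPM also counts transcripts that do not reach the exon.

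A further 11 exons of NMD transcripts, in 6 genes, had a skipping junction that the leading coding transcript does not use, with mean inclusion from 2.58% to 98.5%. Of these, 1 exon of Tra2b and 1 of Hnrnpdl were picked after their values were seen. The 276-nt exon of Tra2b, which the Tra2b protein is known to activate in its own pre-mRNA, was included in 31.7% of replicate 1 and 52.4% of replicate 2. The skipping junction had 207 and 102 reads there, the upstream junction 140 and 146, and the downstream one 52 and 79. The 105-nt exon of Hnrnpdl was included in 68.0% and 65.0%. Among the 15 exons of NMD transcripts plotted, the Tra2b exon differed most between the libraries, by 20.8 points, lower in replicate 1. Tra2b-206, the listed transcript with that exon, held 6.58% and 10.9% of Tra2b TPM. Tra2b, Srsf3 and Hnrnpa1 are also among the genes that share sequence with other loci, and the part of this in their junction reads was not tested.

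**Figure D4:**
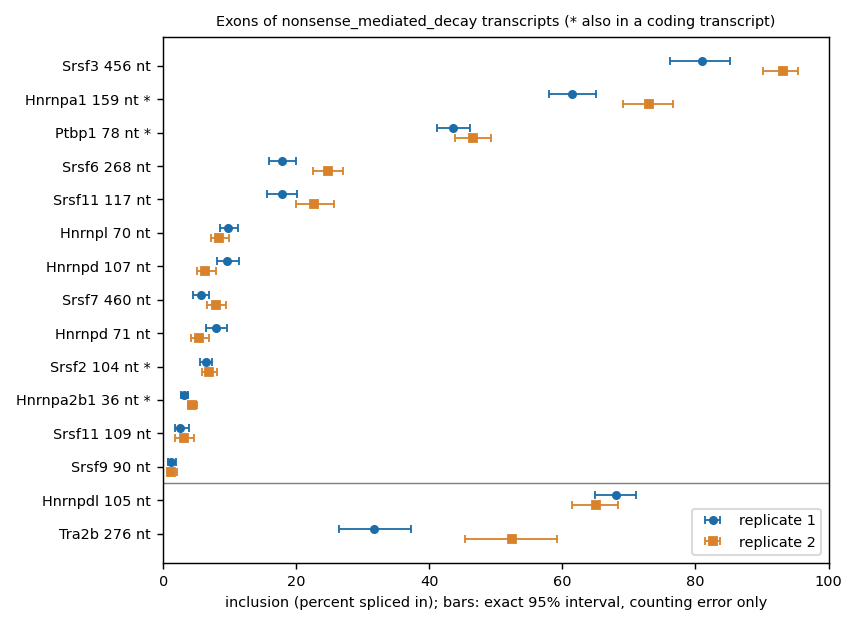
Inclusion (percent spliced in, x axis) of 13 exons of NMD transcripts that the leading coding transcript skips and of 2 further exons of NMD transcripts, in replicate 1 (circles) and replicate 2 (squares), with exact 95% binomial intervals for counting error; stars mark exons that also stand in a coding transcript, and the exons below the line were added after their values were seen. Srsf3 is at 81.0% and 93.1%, while 8 of the 13 exons above the line are under 10% in both libraries.

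Junctions found only in NMD transcripts gave a further reading, set against the median junction of the leading coding transcript. In Srsf1, the busiest NMD-only junction had 14 reads in replicate 1 and 6 in replicate 2, or 0.844% and 0.398% of the coding median, although NMD transcripts were assigned 13.8% and 15.6% of Srsf1 TPM. Clk1 had 34 and 28 such reads, or 2.02% and 1.96%, beside 23.1% and 13.8% of TPM, and Hnrnpdl 34 and 31 reads, or 2.46% and 2.42%, beside 23.1% and 23.0%. In these 3 genes the share of that 1 junction was far below the TPM share assigned to all NMD transcripts. In Clk1 the junction belongs to Clk1-211 alone and in Hnrnpdl to Hnrnpdl-205 alone. Junctions shared with retained_intron transcripts were not counted. The 105-nt exon of the NMD transcript Hnrnpdl-201, which a retained_intron transcript shares, had 740 and 619 reads upstream and 512 and 372 downstream. In Srsf4 the values were 48 and 45 reads, or 11.7% and 10.7%, beside 9.97% and 9.80% of TPM. Clk4 had 304 and 278 reads, or 38.2% and 33.2%, beside 11.0% and 10.3% of TPM. Tra2a, listed with 1 transcript, had 45 and 74 reads, or 3.47% and 7.37%. In Hnrnpa1, which has no NMD transcript in the tables, the busiest such junction had 997 and 779 reads, more than the coding median of 302.5 and 177.5. Values from NMD-only junctions and TPM shares thus differed in both directions. The junction counted need not belong to every NMD transcript of its gene, and the cause was not tested.

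Inside the coding region, several regulators use exons of a length not divisible by 3, so that skipping them shifts the reading frame, and related genes hold exons of the same length. Pairs of both kinds are printed. Identity ran from 76.5% of bases in Ptbp1 and Ptbp2 to 93.4% in Clk1 and Clk4. Inclusion differed between the genes in most pairs, but the values of Clk1 and Clk4 overlapped across libraries. Capitals mark the bases that differ within a pair.
Mbnl1 36-nt exon, chr3:60621423-60621458, plus strand: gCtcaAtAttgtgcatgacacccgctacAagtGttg
Mbnl2 36-nt exon, chr14:120403336-120403371, plus strand: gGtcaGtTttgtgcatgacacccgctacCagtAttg
Mbnl1 54-nt exon, chr3:60614683-60614736, plus strand: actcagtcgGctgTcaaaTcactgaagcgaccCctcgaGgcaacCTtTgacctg
Mbnl2 54-nt exon, chr14:120395712-120395765, plus strand: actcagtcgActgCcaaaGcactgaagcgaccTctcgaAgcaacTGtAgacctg
Ptbp1 34-nt exon, chr10:79862014-79862047, plus strand: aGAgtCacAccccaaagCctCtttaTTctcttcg
Ptbp2 34-nt exon, chr3:119724612-119724645, minus strand: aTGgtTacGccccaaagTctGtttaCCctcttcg
Clk1 91-nt exon, chr1:58420121-58420211, minus strand: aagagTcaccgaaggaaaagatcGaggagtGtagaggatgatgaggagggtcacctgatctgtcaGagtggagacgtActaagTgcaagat
Clk4 91-nt exon, chr11:51273078-51273168, plus strand: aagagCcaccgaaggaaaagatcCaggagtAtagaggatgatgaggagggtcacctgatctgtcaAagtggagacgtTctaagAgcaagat
Hnrnph1 139-nt exon, chr11:50381459-50381597, plus strand: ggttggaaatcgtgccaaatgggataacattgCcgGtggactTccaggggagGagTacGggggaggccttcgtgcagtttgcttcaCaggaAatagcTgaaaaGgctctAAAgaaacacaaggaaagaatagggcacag
Hnrnph3 139-nt exon, chr10:63018760-63018898, minus strand: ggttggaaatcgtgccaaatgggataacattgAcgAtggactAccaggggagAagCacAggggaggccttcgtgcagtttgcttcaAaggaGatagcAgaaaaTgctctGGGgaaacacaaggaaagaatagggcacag

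By junction reads, the pair that differed most was the 36-nt exon of the Mbnl genes, whose proteins drive the switch to adult splicing patterns. The 36-nt exon was included in 82.2% of replicate 1 and 85.9% of replicate 2 in Mbnl1, but in 4.02% and 6.53% in Mbnl2, although 31 of 36 bases are identical. The 54-nt exon, which carries a nuclear localisation signal and which Mbnl1 protein is known to repress in its own pre-mRNA, was included in 31.5% and 33.1% in Mbnl1 and in 52.1% and 44.8% in Mbnl2. The counting intervals of the 2 genes did not overlap for the 36-nt exon in either library, nor for the 54-nt exon in replicate 1, but they overlapped for the 54-nt exon in replicate 2 (27.3% to 39.0% in Mbnl1, 37.3% to 52.5% in Mbnl2). The transcript tables put the 36-nt exon the other way round: the listed transcripts that carry it held 35.4% and 34.8% of TPM in Mbnl1, and Mbnl2-202 held 51.2% and 62.5% in Mbnl2. The tables list 2 transcripts of Mbnl2, both with the 54-nt exon, so the order of the 2 genes rests on the junction reads. A 95-nt exon, identical at 81 bases and not printed, was at 94.8% and 94.0% in Mbnl1 and 77.9% and 76.9% in Mbnl2. These values have unlike flanks. In Mbnl1 the upstream junction came from the 36-nt exon (195 and 155 reads). In Mbnl2 it was the junction that skips the 36-nt exon (167 and 186 reads). The 2 genes are therefore not compared for the 95-nt exon.

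The 34-nt exon pair of the polypyrimidine tract proteins is known from studies in which Ptbp1 protein causes its skipping in both genes, giving an NMD transcript. Inclusion was 91.0% in replicate 1 and 91.4% in replicate 2 in Ptbp1, and 38.1% and 25.2% in Ptbp2, with 26 of 34 bases identical. The skipping junction had 89 and 71 reads in Ptbp1 and 90 and 101 in Ptbp2, and in GENCODE it belongs only to NMD transcripts of each gene. Ptbp2 is listed with 1 transcript in the tables, so none of this skipping shows in its transcript values.

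The 91-nt exon of Clk1 and Clk4 precedes the kinase domain, and forms without it cannot make the active kinase. It was included in 70.5% of replicate 1 and 82.1% of replicate 2 in Clk1 and in 56.1% and 75.7% in Clk4, with 85 of 91 bases identical. Both genes were thus lower in replicate 1, by 11.6 and 19.7 points, and their intervals in the 2 libraries did not overlap. In both genes the transcript tables were also lower in replicate 1, at smaller shares. In Clk4 the listed transcripts with the exon held 13.8% and 16.8% of TPM. In Clk1 the coding transcript Clk1-201 held 29.7% and 40.7% of the gene and the NMD transcript Clk1-210 held 14.2% and 8.94%. Those tables come from the same libraries and are no separate sample.

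The 139-nt exon of the hnRNP H family had inclusion of 93.4% and 87.5% in Hnrnph1 and 59.6% and 53.7% in Hnrnph3, with 126 of 139 bases identical. The listed transcripts with it held 50.9% and 46.5% of TPM in Hnrnph1 and 38.4% and 35.3% in Hnrnph3. By junction reads, the difference between genes exceeded the difference between libraries in each printed pair, except for Clk1 and Clk4, whose values overlapped across libraries.

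**Figure D5:**
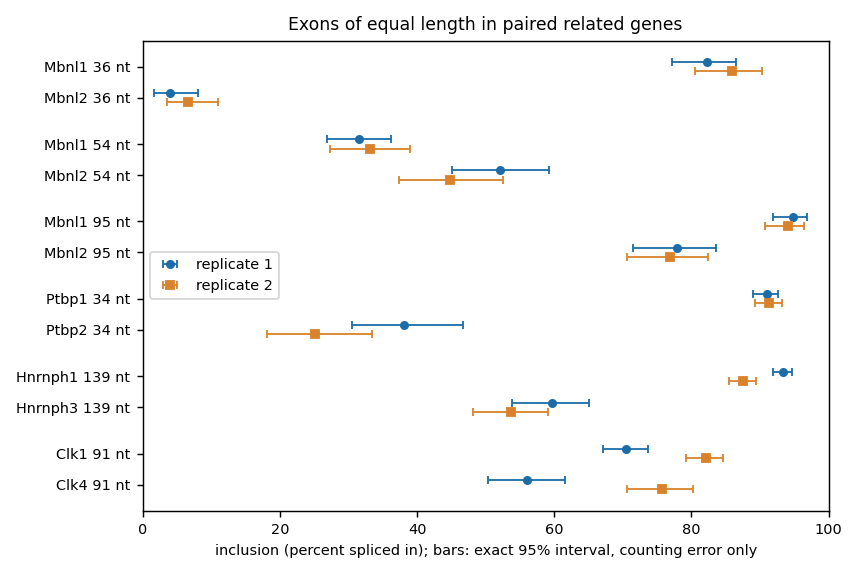
Inclusion (percent spliced in, x axis) of 6 pairs of exons of equal length from 4 pairs of related genes, in replicate 1 (circles) and replicate 2 (squares), with exact 95% binomial intervals for counting error. The 36-nt exon lies at 82.2% and 85.9% in Mbnl1 and at 4.02% and 6.53% in Mbnl2. The values of the 95-nt pair have unlike flanks: the upstream junction came from the 36-nt exon in Mbnl1 and skipped it in Mbnl2.

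Several in-frame exons that make protein isoforms had inclusion within 5 points between the libraries, while the 159-nt exon of Hnrnpa1 and a 72-nt exon of Hnrnpk (75.4% in replicate 1, 63.0% in replicate 2) differed by more than 10. The counting intervals of the Hnrnpk exon overlapped (64.7% to 84.0% in replicate 1, 49.9% to 75.4% in replicate 2). In Hnrnpd, which binds AU-rich RNA, the 147-nt exon was included in 56.0% of replicate 1 and 59.4% of replicate 2 and the 57-nt exon in 60.3% and 58.6%; skipping of one, both or neither gives its known protein isoforms. The 120-nt exon of Hnrnpa2b1 was included in 83.1% and 83.7%, and the 36-nt exon of Srsf7 in 86.2% and 85.0%. The B1 exon of Hnrnpa2b1 and the Hnrnpd exons are printed because they define these isoforms.
Hnrnpa2b1 36-nt exon, chr6:51467391-51467426, minus strand: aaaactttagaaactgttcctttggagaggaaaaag
Hnrnpd 57-nt exon, chr5:99976534-99976590, minus strand: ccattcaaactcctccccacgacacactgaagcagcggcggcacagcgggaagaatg
Hnrnpd 147-nt exon, chr5:99963731-99963877, minus strand: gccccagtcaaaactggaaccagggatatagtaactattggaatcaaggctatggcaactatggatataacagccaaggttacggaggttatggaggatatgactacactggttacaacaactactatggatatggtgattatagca

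Between the libraries the regulators' gene levels were close. Of the 36 with a mean of at least 50 counts, 0 were beyond 1.5-fold in replicate 1 over replicate 2 after TMM scaling, against 5.71% of all 14956 genes at that depth (4.09% higher and 1.62% lower in replicate 1). Their log2 ratios ran from -0.27 for Srsf4 (25.7 TPM in replicate 1, 33.6 TPM in replicate 2) to 0.24 for Esrp1 (0.13 and 0.11 TPM, from 69 and 52 counts), with a median of -0.02 and 17 genes higher and 19 lower in replicate 1. The median over all genes was -0.0002. Deposited TPM, which is not rescaled between libraries, shifted the median of the regulators to -0.11, as it did that of all genes (-0.11). Srsf3 had the next highest ratio, 0.21.

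Their isoforms were also much alike in both libraries. The same transcript led in 34 of 37 genes, and in 27 of the 29 genes of at least 10 TPM with more than 1 transcript, against 95.2% of all such genes. Of 274 transcripts in those genes, 5 differed by 10 points or more of the gene's TPM (1.82%, against 1.5% of all transcripts), in 3 of the 29 genes, against 6.19% of all such genes. Besides Clk1-201 these were the coding transcripts Hnrnpd-203 (31.4% in replicate 1, 43.0% in replicate 2) and Hnrnpd-210 (20.9% and 9.29%), and Hnrnpl-201 (31.4% and 42.8%) and Hnrnpl-202 (27.1% and 14.2%). A share near that of all transcripts is no result about the regulators.

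Inclusion of some exons differed between the libraries. Of 88 exons in the regulators outlined by 3 junctions, with mean inclusion between 5% and 95%, 12 (13.6%) differed by 10 points or more, against 9.28% of all 6314 such exons. Of the 12, 9 were lower in replicate 1 and 3 were higher, against 4.96% and 4.32% of all exons. They lie in 9 genes, and exons of the same gene share reads, so the difference of these shares was not tested. Clk1, Clk4, Tra2b, Srsf3 and Hnrnpa1 are among those lower in replicate 1, and the 34-nt exon of Ptbp2 (38.1% in replicate 1, 25.2% in replicate 2) among those higher.

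Other parts of the splicing and decay machinery were present throughout. All 31 core spliceosome genes listed were detected in both libraries, led by the Sm protein genes Snrpe (132.8 TPM in replicate 1, 135.3 TPM in replicate 2) and Snrpd2 (110.7 and 127.0 TPM). Over the 28 of at least 10 TPM, their median share in NMD and retained_intron transcripts was 2.60%, and 8 reached 10% in both libraries. This median includes genes with no such transcript listed. All 14 genes for nonsense-mediated decay and the exon junction complex were detected, with Eif4a3 highest at 57.5 and 66.2 TPM. Of 5 kinases of SR proteins besides the members, 4 were detected, and Srpk3 was at 0.71 and 0.42 TPM. Of 45 other regulators 31 were detected, with Hnrnpa3 at 191.2 and 228.6 TPM, while 14 were below 1 TPM in a library. Among the 14, Nova1, known from neurons, had 0.03 and 0.04 TPM and Rbm24, known from muscle, 0.06 and 0.08 TPM, whereas Srrm4, a neural factor, passed at 1.00 and 1.18 TPM. Beyond 1.5-fold between the libraries was 1 gene of these 4 lists, Srpk3 in the kinase list, with 171 counts in replicate 1 and 101 in replicate 2. For 12 of the 25 other regulators of at least 10 TPM, NMD and retained_intron transcripts held at least 10% of TPM in both libraries. The same held for 2 of 3 kinases, 2 of 5 decay and exon junction genes, and 18 of the 31 members. Among genes with such a transcript listed, 12 of 15 other regulators and 18 of 20 members reached it. Median shares were 1.90% for other regulators, 23.6% for kinases and 0% for decay and exon junction genes.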

How the data were processed

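Both libraries were quantified by the authors on mm10 with GENCODE M4, per the deposited notes on each sample; the sources used here name neither the aligner nor the quantifier. The deposited tables give each gene and transcript an expected count (an estimated number of fragments), TPM, FPKM and, for transcripts, the percent of the gene's TPM. The authors' mm9 tables give 2 RPKM values per gene and transcript, and the junction list they deposited holds, for every junction, a count of reads in each replicate; these summed to its total in every row. The junction reads of Ctrb1, 3702 for R1 and 21 for R2, match the mm10 tables in which replicate is high.

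Symbols, biotypes and mm10 positions came from GENCODE M21 by identifier without version, and 42462 of 43346 genes matched. Expected counts were rounded and scaled by TMM in edgeR 4.0.16 (R 4.3.3), with 0.5 added before log2, which understates ratios of low genes; DESeq2 1.42.0 size factors were the alternative. Exons of mm10 transcripts were matched to mm9 junctions by equal intron and exon lengths within a gene, with at least 10 reads per library, and no coordinate was converted. Exons with a mean inclusion outside 1% to 99% were left out. The background of exons needed 50 reads per library and at most 1000 nt. Intervals are exact (Clopper-Pearson) and cover counting error only, since reads are not independent molecules. The ratio and inclusion steps were tested on simulated data. The simulated inclusion gave both junctions of an exon the same reads, so uneven junctions were not tested. Nothing says that the 2 replicates came from separate animals beyond their label, so their spread may be partly technical. Members and lists were chosen with earlier results of these data known. All members could be named, as could the leading transcript and each NMD or retained_intron transcript with 10% of the gene, and up to 4 genes per other list. Other items were chosen after their values were seen: the exons of coding transcripts, the pairs, Srpk3, Srrm4, Clk1-210, the transcripts that carry a named exon and the transcripts that differed between libraries.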

Additional observations from a re-analysis of the deposited data

How the results depend on the processing

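With 2 libraries no setting yields a test, and shares of isoform classes depend most on how they are counted. The mean share of 22.9% in NMD and retained_intron transcripts was 6.62% with NMD alone, 16.3% with retained_intron alone, 31.1% with every transcript not of the protein_coding biotype, 18.7% by expected counts, 10.7% as a median over members and, chosen after seeing the data, 29.9% in mm9 transcript RPKM. Members with at least 10% in these classes were 18, and 7 with NMD alone; by expected counts they were 12. Summed TPM of 3126 became 2924 in FPKM, which has another scale. The 5 transcripts that differed by 10 points became 12 at 5 points, 0 at 20 points and 8 with genes of at least 1 TPM. Median inclusion of the 13 exons of NMD transcripts, 7.93%, was 9.50% from the downstream junction alone and ran from 7.89% to 9.53% with 1 replicate left out. From a single junction, 25 of 30 values of single exons moved by more than the spread between libraries, and the cause was not tested. Set beside the transcript tables, chosen after seeing the data, the order of Mbnl1 and Mbnl2 for the 36-nt exon turned, and by expected counts Srsf1 and Srsf11 were led by coding transcripts. Under every alternative run, 33 to 35 members were detected and 0 were beyond 1.5-fold, and the median log2 ratio ran from -0.11 to -0.01. No paired analysis was possible because there is 1 group only and no result comes from a test. Precision is limited by 2 libraries and, for exons of lower genes such as Mbnl2 and Ptbp2, by junction reads.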

Other observations

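Some further exons of the tissue-biased regulators, not named above, were chosen after their values were seen. In Celf2, a regulator known from heart and muscle, a 144-nt exon was included in 61.8% of replicate 1 and 57.6% of replicate 2. In Rbfox2, which binds a UGCAUG element, a 40-nt exon was included in 77.2% and 72.2%, and a 51-nt exon in 71.8% and 70.5%. In Mbnl3 the 36-nt exon that Mbnl1 includes was nearly absent, with 0.671% and 1.75% from 74 and 56 skipping reads. These exons stayed within 10 points between the libraries.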
